A study of Mus musculus with 60 samples.

Results

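The effect of paternal nicotine on offspring hepatocytes was examined at a single early culture time, by comparing RNA from cells of nicotine-sired (NIC) and control (TA) males 1 h into culture. The comparison takes all 10 libraries that the labels give a culture time of 1 h, 5 NIC and 5 TA, out of 60 libraries in the series. All animals were 8-week-old C57BL/6J males that had not been given nicotine themselves. Their fathers drank nicotine (NIC) or a tartaric acid control solution (TA) and were mated to untreated females, and each animal came from a separate litter. Every culture had DMSO and dexamethasone, a synthetic glucocorticoid, so that both groups share this exposure. Livers were perfused with collagenase and the plated cells adhered for 3 h before fresh medium was added, and the culture time starts there. The same animals also gave libraries at 0 h and 3 h, which are used here only to place the values at 1 h. Library titles carry a date, called A for TA animals 1 to 3 and NIC animals 11 to 13, and B for TA animals 4 and 5 and NIC animals 14 and 15. Neither the titles nor the study's methods say what was done on these dates.

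The liver clears foreign compounds in steps. Phase I enzymes, chiefly cytochromes P450 fed with electrons by the reductase Por, oxidize a compound. Phase II enzymes attach sulfate, glucuronide, glutathione or methyl groups, and Phase III transporters carry the products across the cell membrane. Nuclear receptors such as PXR (Nr1i2) and CAR (Nr1i3) sense foreign compounds and control many of these genes, and most of the enzymes are found around the central vein of the liver lobule. In mouse, Cyp2a5 is the main enzyme oxidizing nicotine and its metabolite cotinine.

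Hepatocyte transcripts dominated every library. The 30 hepatocyte markers summed to 182188 to 223502 ppm in TA and 181789 to 205659 ppm in NIC libraries, where ppm is the deposited unit, the share of the library total scaled as the submitters describe. Read totals recovered from the deposited values were 1301733 to 1957952 in the TA libraries and 1696169 to 2499875 in the NIC libraries, so that the NIC libraries were on the whole deeper. The 21 Kupffer cell and macrophage markers summed to 193 to 308 ppm in TA and 185 to 407 ppm in NIC libraries, the 19 sinusoidal endothelial markers to 142 to 250 and 117 to 289 ppm, and the 20 stellate cell and fibroblast markers to 40.2 to 60.4 and 34.6 to 105 ppm. The 15 biliary markers summed to 50.7 to 143 ppm in TA and 34.6 to 163 ppm in NIC libraries, and the 18 lymphocyte markers to 2.40 to 17.0 and 1.98 to 9.58 ppm. The 13 neutrophil markers ran from 78.9 to 548 ppm in TA and from 42.8 to 1128 ppm in NIC libraries, most of it Lcn2, which stressed hepatocytes also express. S100a8, a defining neutrophil gene, was at 0 in all TA libraries and in NIC animals 11, 12 and 15, at 2.48 ppm in NIC animal 14 and at 14.8 ppm in NIC animal 13, the library with the 1128 ppm sum. In such bulk libraries, fewer cells of a type and less RNA per cell cannot be told apart. The libraries of TA animal 4 and NIC animal 13 stood apart on the leading axis of a principal component analysis, TA animal 4 at -38.8 and NIC animal 13 at -44.7, with the other libraries between -15.7 and 20.6. This axis held 25% of the variance.

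No gene passed the test between NIC and TA at 1 h. Among the 10069 genes with a mean above 1 ppm, 0 were higher and 0 lower at a Benjamini-Hochberg adjusted p under 0.05 in limma with date as a term (background 0% in each direction), and the smallest adjusted p was 0.999. At an unadjusted p under 0.05, 235 genes were higher in NIC (2.33%) and 199 lower (1.98%), 434 in all against 503 that this threshold gives on average when no gene differs. The groups did not overlap for 47 genes with every NIC value above every TA value (0.467%) and 31 with every NIC value below (0.308%). The median log2 fold change over all genes was -0.00. Leaving out NIC animal 13 raised the shares at that threshold to 3.78% higher and 4.44% lower. On date A alone they were 2.46% and 0.934%, and on date B alone 2.94% and 5.74%. Over all settings that left out 1 library, 176 to 381 genes were higher and 126 to 447 lower. Counts within lists given below for these settings are to be read against these values. With limma-voom on the recovered reads, an alternative chosen after seeing the data, 0 genes passed as well, with 176 higher and 239 lower at an unadjusted p under 0.05. The named genes below therefore give values and their spread, and none is a call.

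**Figure D1:**
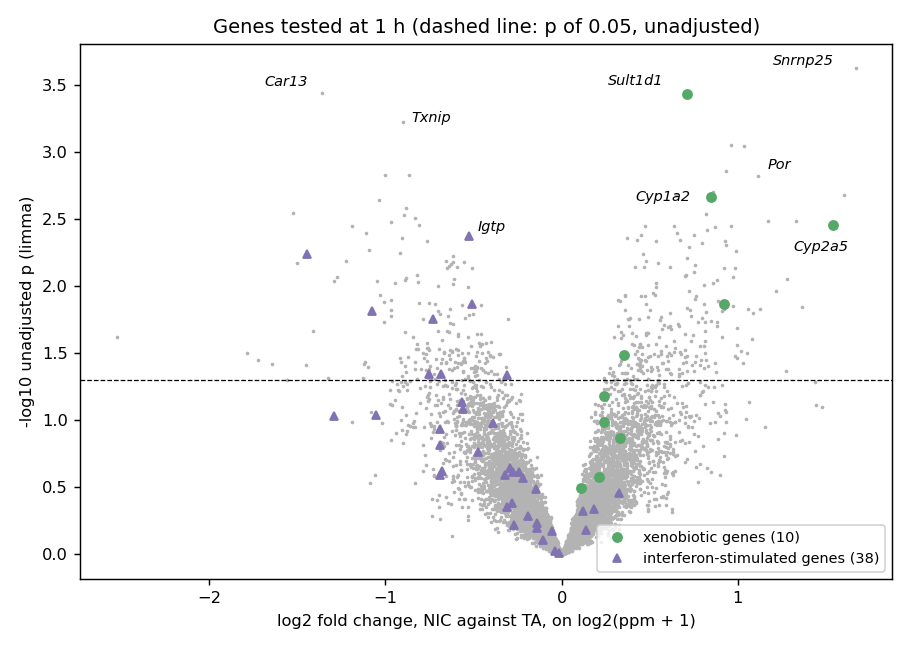
Log2 fold change at 1 h, NIC against TA, on log2(ppm + 1) (horizontal axis) and -log10 of the unadjusted limma p (vertical axis) for 10069 genes (grey). The 10 xenobiotic genes (green circles) all lie to the right of 0, and 34 of 38 interferon-stimulated genes (purple triangles) to the left. No gene passed after adjustment.

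The genes the study names for xenobiotic handling all had higher mean log2 levels in NIC hepatocytes at 1 h. Of these 10 genes, 10 had a positive log2 fold change (background 49.3%), 5 had an unadjusted p under 0.05 (2.33%) and 0 passed after adjustment, with a median of 0.34 against -0.00 over all genes. The study chose these genes on libraries that include the ones used here, so this is not independent evidence of a direction.

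Cyp2a5 varied most among them. Its level was 829, 552, 314, 145 and 57.6 ppm in TA animals 1 to 5 and 697, 1662, 621, 622 and 578 ppm in NIC animals 11 to 15. The TA values spanned more than a 10-fold range and overlapped the NIC values through animal 1 alone, and NIC animal 12 stood far above the others. NIC exceeded TA by 1.54 on the log2 scale (standard error 0.43, unadjusted p = 0.00352 in limma, adjusted p = 0.999), and 0.77 on date A against 2.70 on date B, which holds the TA animals of lowest level.

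Cyp1a2, a P450 that oxidizes caffeine and aromatic amines, measured 282, 172, 116, 249 and 228 ppm in TA animals 1 to 5. In NIC animals 11 to 15 it measured 316, 347, 412, 296 and 460 ppm, so that every NIC animal lay above every TA animal. The groups differed by a log2 fold change of 0.85 with a standard error of 0.22 (limma, adjusted p = 0.999). An exact permutation within dates, 2-sided, gave p = 0.0167 before any correction over genes, the smallest that 120 splits allow.

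Sult1d1, a sulfotransferase acting on catecholamines and other small phenols, gave the smallest p among the xenobiotic genes. It was at 205, 207, 158, 138 and 207 ppm in TA animals 1 to 5, and at 266, 319, 321, 316 and 266 ppm in NIC animals 11 to 15. The highest TA value lay below the lowest NIC value. Means were 183 ± 33.0 ppm (SD, n = 5) and 298 ± 29.0 ppm (SD, n = 5), a log2 fold change of 0.71 (standard error 0.15, unadjusted p = 0.000371 and adjusted p = 0.999 in limma). It was 0.67 on date A and 0.78 on date B.

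Slco1a4, a transporter that takes up organic anions, was at 26.6, 63.6, 40.0, 25 and 26.9 ppm in TA animals 1 to 5 and 64.8, 108, 32.6, 79.4 and 66.4 ppm in NIC animals 11 to 15. NIC animal 13 fell among the TA values. On the log2 scale the difference was 0.92 with a standard error of 0.32 (limma, adjusted p = 0.999). Nr1i2, the receptor PXR itself, had means of 41.1 ± 4.89 and 52.8 ± 6.04 ppm (SD, n = 5 each) and a log2 fold change of 0.35. The remaining 5 genes, Cyp2c68, Ugt2a3, Ugt2b1, Sult1a1 and Nr1h3 (the oxysterol receptor LXR alpha), had log2 fold changes of 0.33, 0.24, 0.11, 0.21 and 0.24, each with an unadjusted p above 0.05. The study prints Nr1h3 as the symbol of CAR, whose gene is Nr1i3. Nr1h3 is counted here by its printed symbol.

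**Figure D2:**
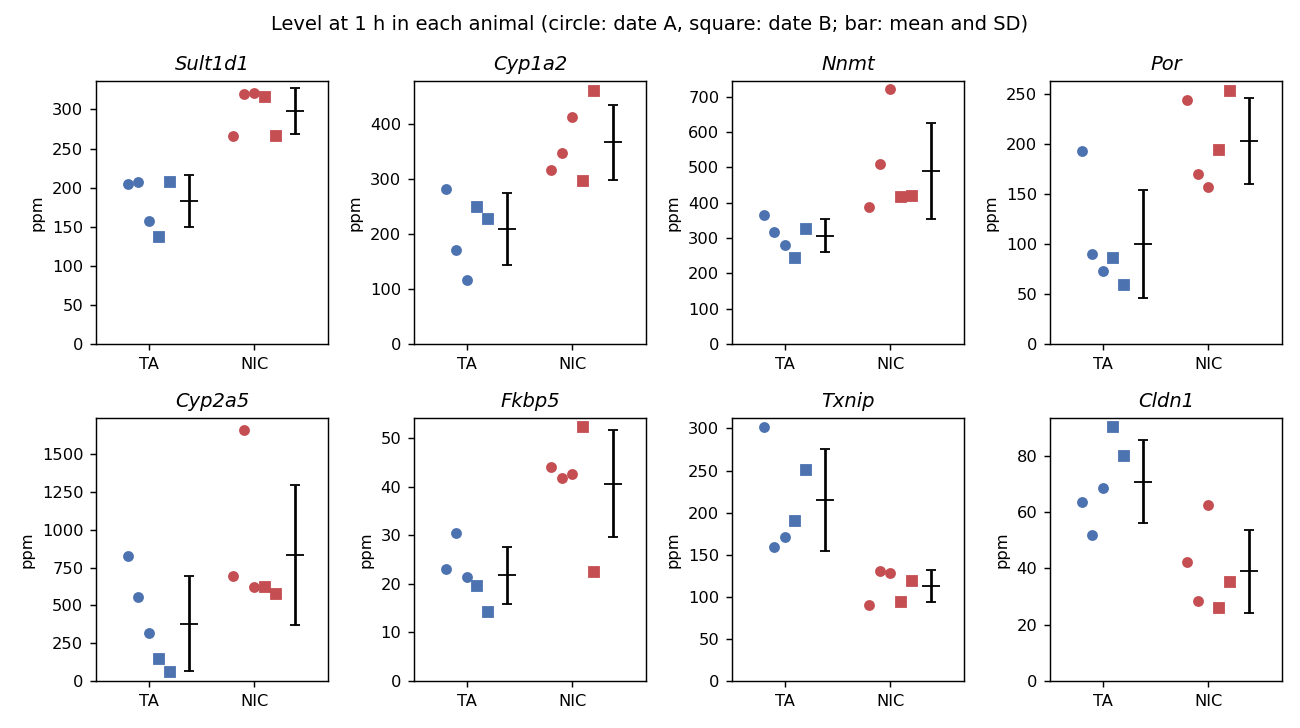
Level in ppm (vertical axis, from 0) at 1 h in each TA (blue) and NIC (red) animal for 8 genes, circles for date A and squares for date B, with the mean and SD of 5 animals at the side. Sult1d1, Cyp1a2, Nnmt and Txnip do not overlap between the groups. Por, Cyp2a5, Fkbp5 and Cldn1 do.

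The wider lists of drug-handling enzymes also had positive medians, with no gene passing. They hold 8 of the study's 10 genes and so are not independent of them, namely Cyp1a2, Cyp2a5 and Cyp2c68 among the P450s, Sult1d1, Sult1a1, Ugt2a3 and Ugt2b1 in Phase II and Slco1a4 in Phase III. Of 33 tested cytochromes P450 of families 1 to 3, 28 had a positive log2 fold change (background 49.3%), 6 had an unadjusted p under 0.05 in NIC's favour (2.33%) and 0 were lower at that threshold, and the median was 0.26. Without the study's 3 genes, a count like those below chosen after seeing the data, 25 of 30 were positive, 4 were higher and the median was 0.24. The count of 6 was 10 without TA animal 4 and 4 to 9 without any other 1 library. The list's 4 smallest p belong to Cyp1a2, Cyp2a5, Cyp3a16 and Cyp2e1. Cyp2e1, which oxidizes ethanol and acetaminophen, had means of 2830 ± 1322 ppm in TA and 4497 ± 1106 ppm in NIC hepatocytes (SD, n = 5 each; log2 fold change 0.76). Cyp3a16 had means of 17.9 ± 8.93 and 30.6 ± 8.45 ppm, and near-identical copies of both the Cyp3a and the Cyp2a genes make their counts uncertain.

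Por, the electron donor of these enzymes, belongs with the other Phase I genes. It measured 193, 89.8, 73.0, 85.7 and 58.9 ppm in TA animals 1 to 5 and 244, 170, 157, 194 and 253 ppm in NIC animals 11 to 15. TA animal 1 was close to the middle NIC value, and the other TA animals lay below all NIC animals. The difference on the log2 scale came to 1.12 with a standard error of 0.27 (limma, adjusted p = 0.999). Over all 53 other Phase I enzymes tested, 37 had positive values (background 49.3%), with 3 higher (2.33%) and 1 lower (1.98%) at an unadjusted p under 0.05 and a median of 0.09. The median was -0.05 on date A and 0.17 on date B, and the count of 3 was 11 without NIC animal 13 and 5 without TA animal 1. Aldh2 and Adh5, which oxidize aldehydes and alcohols, had log2 fold changes of 0.33 and 0.38, and Adh4, a retinol and alcohol dehydrogenase, of -0.53.

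Among 57 Phase II enzymes, 42 had a positive value (background 49.3%), 7 were higher (2.33%) and 0 lower at an unadjusted p under 0.05, and the median was 0.17. Without the study's 4 genes, 38 of 53 were positive, 6 were higher and the median was 0.13. Without NIC animal 13 the count of 7 was 15 with a median of 0.22, and without TA animal 1 the median was 0.11. After Sult1d1 the smallest p belonged to Nnmt, Sult1b1 and Ugt1a1. Nnmt, which methylates nicotinamide, measured 366, 317, 280, 243 and 327 ppm in TA animals 1 to 5 and 388, 509, 720, 415 and 418 ppm in NIC animals 11 to 15. The groups did not overlap, and NIC animal 13 was the highest (log2 fold change 0.65, standard error 0.17, adjusted p = 0.999 in limma). Sult1b1, a sulfotransferase of thyroid hormones and phenols, had means of 12.9 ± 3.45 and 23.6 ± 5.95 ppm (SD, n = 5 each). Ugt1a1, which conjugates bilirubin and shares its last exons with the other Ugt1a genes, had means of 91.8 ± 19.8 and 123 ± 17.0 ppm. Of 24 Phase III transporters, 19 had a positive value (49.3%) and the median was 0.13, with 0.03 on date A and 0.28 on date B. The 1 gene higher at an unadjusted p under 0.05 (2.33%) was Slco1a4. The count was 0 on date A, 5 without NIC animal 13, 3 without TA animal 1, and 2 without TA animal 4 or 5. On date B, 7 transporters were higher and 4 lower. In the main test 0 were lower, with 1 lower without TA animal 1 and 2 without TA animal 2. Nuclear receptors and their partners showed no lean, with 20 of 40 on either side of 0 (background 49.3% positive) and a median of 0.00.

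Genes of the pericentral zone, where drug metabolism is concentrated, had a median of 0.33. Of 20 tested, 18 had positive values (background 49.3%), and 6 were higher (2.33%) and 0 lower at an unadjusted p under 0.05. Cyp1a2, Cyp2a5 and Cyp2e1 are also in the P450 list, and without Cyp1a2 and Cyp2a5, both among the study's 10 genes, 16 of 18 were positive, 4 were higher and the median was 0.30. Leaving out 1 library gave 4 (TA animal 2 or 5, or NIC animal 12) to 8 (TA animal 1 or NIC animal 13) higher. Gulo, an enzyme of vitamin C synthesis, had means of 152 ± 52.0 ppm in TA and 242 ± 40.7 ppm in NIC hepatocytes (SD, n = 5 each; log2 fold change 0.71). Of 22 periportal genes, 10 were positive (background 49.3%) and 12 negative, with a median of -0.06. At an unadjusted p under 0.05, 2 periportal genes were higher (background 2.33%) and 0 lower. These were Sds and Asl, enzymes of serine breakdown and the urea cycle, with log2 fold changes of 0.48 and 0.32.

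**Figure D3:**
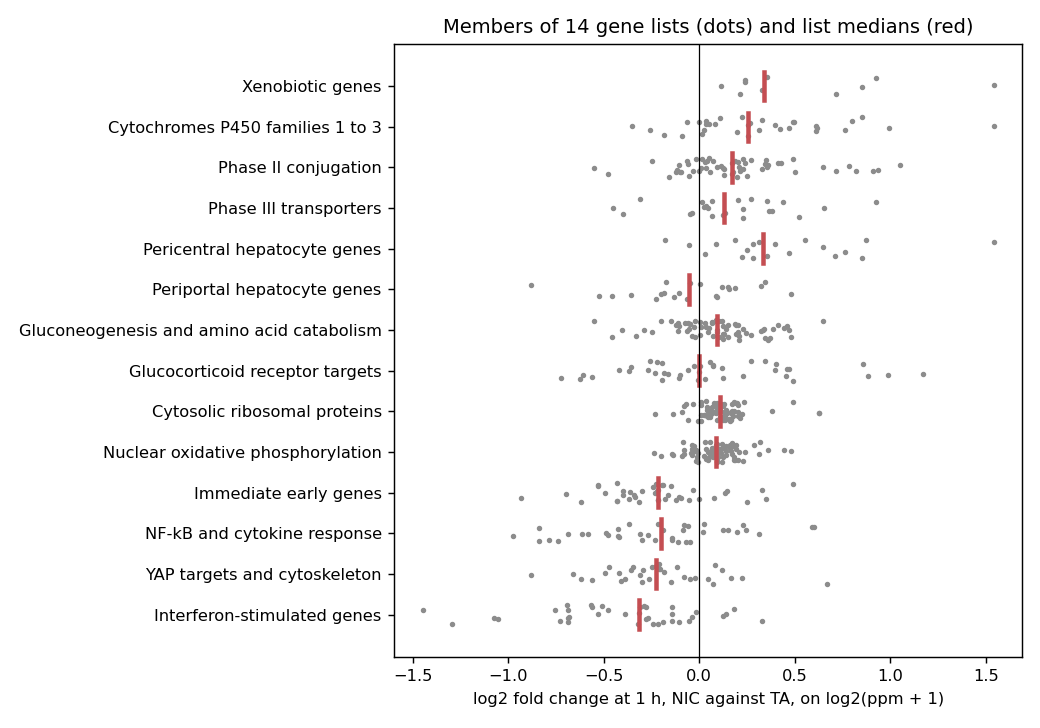
Log2 fold change at 1 h on log2(ppm + 1) (horizontal axis) of the tested members of 14 gene lists (grey dots) and each list's median (red). Medians run from 0.34 for the xenobiotic genes to -0.31 for the interferon-stimulated genes, and members of every list spread to both sides of 0 except the xenobiotic genes.

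Enzymes of gluconeogenesis and amino acid breakdown gave 48 positive values of 70 (background 49.3%), with 9 higher (2.33%) and 1 lower (1.98%) at an unadjusted p under 0.05 and a median of 0.09. Without NIC animal 13 there were 14 higher, and without NIC animal 12 the median was 0.06. Got1, Gpt and Tat transfer the amino groups of aspartate, alanine and tyrosine. Their means went from 220 ± 31.0, 188 ± 15.8 and 2019 ± 221 ppm in TA to 306 ± 50.2, 245 ± 26.5 and 2799 ± 459 ppm in NIC hepatocytes (SD, n = 5 each). Log2 fold changes were 0.47, 0.37 and 0.46. Glucocorticoid receptor targets, which matter here because all cultures held dexamethasone, split 20 to 21 with a median of -0.00, and 6 were higher (2.33%) and 0 lower at an unadjusted p under 0.05. Without NIC animal 13 there were 9 higher and 6 lower, and without TA animal 2 or 5 there was 1 lower.

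Fkbp5 led the glucocorticoid list. This chaperone of the glucocorticoid receptor, itself induced by the receptor, measured 23.1, 30.5, 21.5, 19.6 and 14.2 ppm in TA animals 1 to 5 and 44.1, 41.9, 42.6, 52.4 and 22.4 ppm in NIC animals 11 to 15. NIC animal 15 fell among the TA values and the other NIC animals lay above all of them. NIC lay above TA by 0.86 on the log2 scale with a standard error of 0.22 (limma, adjusted p = 0.999). Arrdc2, an arrestin-domain protein, was low at 1.60 ± 0.755 and 5.02 ± 2.52 ppm (SD, n = 5 each) and did not overlap. Lpin1, a phosphatidate phosphatase of fat synthesis, had means of 99.4 ± 25.3 and 213 ± 103 ppm, and Etnk2, an ethanolamine kinase, of 135 ± 21.2 and 187 ± 25.1 ppm.

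Other genes of smallest p in the higher direction were of varied kind, and several rest on few reads. Gpcpd1, a phosphodiesterase of phospholipid breakdown, was at 63.0, 58.5, 68.9, 51.6 and 38.8 ppm in TA animals 1 to 5 and 77.4, 112, 97.9, 173 and 102 ppm in NIC animals 11 to 15, with no overlap (log2 fold change 0.96). Snrnp25, a protein of the minor spliceosome, had the smallest p of the whole comparison (p = 0.000237 unadjusted, adjusted p = 0.999 in limma), yet it rests on 0, 0, 0, 1 and 0 reads in TA animals 1 to 5 and 1, 3, 4, 2 and 4 reads in NIC animals 11 to 15. Tmub1 had 1 to 5 reads in TA and 6 to 9 in NIC libraries, Cxx1b 0 to 1 and 1 to 5, Polr2h, a subunit of all RNA polymerases, 2 to 6 and 6 to 21, and Wdr83 0 to 7 and 6 to 16. The transcribed region of Wdr83 overlaps Dhps and Wdr83os on the other strand.

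In the lower direction, Txnip was the best supported by depth. This arrestin-like protein that binds thioredoxin and restrains glucose uptake was at 302, 160, 172, 190 and 251 ppm in TA animals 1 to 5 and 90.3, 131, 128, 94.1 and 119 ppm in NIC animals 11 to 15. All NIC values lay below all TA values (log2 fold change -0.90, standard error 0.20, unadjusted p = 0.000596 and adjusted p = 0.999 in limma). Mcu, the calcium channel of the inner mitochondrial membrane, had 14 to 34 reads in TA and 14 to 20 in NIC libraries and no overlap in ppm (7.18 to 13 against 4.0 to 6.75, log2 fold change -0.87).

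Cldn1, a tight junction protein, measured 63.5, 51.9, 68.6, 90.3 and 79.8 ppm in TA animals 1 to 5 and 42.4, 28.4, 62.7, 26.0 and 35.2 ppm in NIC animals 11 to 15, with NIC animal 13 among the TA values (log2 fold change -0.89). C1qc, a complement component made by macrophages, was at 17.9 to 27.5 ppm in TA and 6.81 to 17.2 ppm in NIC libraries, without overlap. The summed macrophage markers overlapped between the groups, as given above, and 9 of the 21 were positive (background 49.3%). The part of macrophage content in the C1qc value was not tested. Car13, a carbonic anhydrase, had 3 to 5 reads in each TA and 0 to 2 in each NIC library. Other low genes of this end were Rpp30, Ptpn6, Npy, Tspan3, Ddx31, Crb3 and the lincRNA A330069E16Rik, with at most 15 reads in any library.

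Interferon-stimulated genes had the lowest median of all lists with at least 20 tested members. Of 38 tested, 34 had a negative value (background 50.7%), 8 were lower (1.98%) and 0 higher at an unadjusted p under 0.05, 0 passed after adjustment and the median was -0.31. Igtp, an interferon-induced GTPase, had a mean of 25.1 ± 4.19 ppm in TA and 16.9 ± 0.577 ppm in NIC hepatocytes (SD, n = 5 each), without overlap (log2 fold change -0.53). Iigp1, a GTPase of the same family, had means of 489 ± 184 and 328 ± 32.5 ppm, Rtp4 of 16.3 ± 9.0 and 7.39 ± 4.26 ppm and the nucleotide kinase Cmpk2 of 6.93 ± 4.83 and 2.01 ± 1.80 ppm. The list's median was -0.13 on date A, with 1 gene lower at that threshold, and -0.74 on date B, with 12 lower. The count of 8 was 17 without NIC animal 13 (median -0.50), 4 without NIC animal 15 (median -0.34) and 5 without TA animal 1 or 4 or NIC animal 12 or 14. Over all genes, 126 were lower without NIC animal 15. The share lower was 1.37% without NIC animal 12, 1.38% without TA animal 4 and 2.06% without TA animal 1.

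Father differences in markers of other liver cells also differed between the dates, which hold 3 (A) and 2 (B) animals per group. On date A the endothelial markers summed to 289 ppm in NIC animal 11 and 129 to 170 ppm in the other animals. On date B they summed to 181 and 250 ppm in TA and 117 and 125 ppm in NIC animals. The 18 tested sinusoidal endothelial markers had a median log2 fold change of 0.23 on date A, with 14 positive, and of -0.59 on date B, with 18 negative. The 21 Kupffer cell and macrophage markers had 0.26 with 17 positive and -0.44 with 16 negative, and the 5 tested biliary markers -0.26 and -0.93. Their part in the values of the interferon-stimulated, immediate early, NF-kB and YAP lists was not tested.

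Immediate early genes, which perfusion and plating induce, gave 35 negative values of 42 (background 50.7%) with 2 lower (1.98%) at an unadjusted p under 0.05 and a median of -0.22. The median was -0.13 on date A and -0.46 on date B. The count was 9 without NIC animal 13 (median -0.38), 4 without TA animal 2, 0 without TA animal 1 or NIC animal 12 (medians -0.14 and -0.12), and 1 without TA animal 3 or NIC animal 14 or 15. Their 46 members in the table summed to 3221 to 5539 ppm in TA and 2952 to 4228 ppm in NIC libraries. Atf3, a stress-induced transcription factor, had means of 550 ± 101 and 421 ± 134 ppm (SD, n = 5 each), and Egr1, an early growth response factor, of 114 ± 44.0 and 72.8 ± 26.0 ppm. NF-kB and cytokine response genes were negative in 28 of 38 (50.7%), with 2 lower (1.98%) and a median of -0.20, led by the transcription factor Irf1 at 80.5 ± 16.2 and 53.9 ± 20.2 ppm. This median was -0.05 on date A and -0.42 on date B. It was -0.42 with 10 lower without NIC animal 13, -0.10 with 1 lower without NIC animal 12 and -0.11 without TA animal 4. There were 5 lower without TA animal 5 and 1 without TA animal 3 or NIC animal 11 or 14. YAP targets and cytoskeletal genes were negative in 26 of 33 (50.7%), with 0 at an unadjusted p under 0.05 and a median of -0.23. On date A the YAP list's median was 0.05, with 18 positive and 15 negative, and on date B it was -0.64, with 6 lower. It was -0.04 without TA animal 4 and -0.40 with 10 lower without NIC animal 13.

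The large housekeeping lists had small and mostly positive values. Of 78 cytosolic ribosomal protein genes, 70 had positive values (background 49.3%), with a median of 0.11, and 1 (2.33%), Rpl3, was higher at an unadjusted p under 0.05 (4 were without TA animal 4 and 2 without TA animal 1; Rpl3 had 328 ± 58.6 and 423 ± 25.3 ppm, SD, n = 5 each). Of 77 nuclear genes of oxidative phosphorylation, 57 were positive (49.3%) with a median of 0.09 and 3 were higher (2.33%), namely Ndufs6, Ndufa2 and Ndufb2 of respiratory complex I. Lists of cholesterol synthesis, heat shock chaperones, Nrf2 targets and ER stress had 0 members in either direction at an unadjusted p under 0.05, with medians of 0.01, -0.01, -0.01 and -0.10. These medians join dates of opposite sign. Of the 26 cholesterol synthesis genes, which include the sterol pathway from acetyl-CoA to cholesterol, 24 were positive on date A with a median of 0.34 and 3 higher, and 22 negative on date B with a median of -0.29 and 6 lower. Without TA animals 4 and 5 and NIC animal 13 the median was 0.39 with 4 higher (3.48% over all genes). No TA animal of date B is left there, so this is date A again, less NIC animal 13. Medians on dates A and B were 0.20 and -0.26 for heat shock chaperones, 0.06 and -0.05 for Nrf2 targets and 0.03 and -0.34 for ER stress.

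Of 17 major urinary proteins tested, Mup20, Mup4 and Mup21 were lower at an unadjusted p under 0.05 (background 1.98%; log2 fold changes -0.62, -2.52 and -0.40) and the median was 0.03, in a family whose near-identical copies share reads. Without TA animal 3 or NIC animal 12 or 14 there was 1 lower. Of 39 lipogenesis genes and targets of LXR, 21 were positive (49.3%), 5 were higher (2.33%) and 1 lower (1.98%), with a median of 0.05. The median ran from -0.07 without NIC animal 11 to 0.12 without TA animal 4. There were 9 higher without NIC animal 13, 3 without NIC animal 14 and 2 without TA animal 4 or 5 or NIC animal 11 or 15. Thrsp, a regulator of fat synthesis, had means of 1183 ± 761 and 1970 ± 407 ppm.

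Levels of some circadian clock genes set individual animals apart. In the liver, Arntl and Clock form the activator that binds E-boxes and switches on Per and Cry repressors, the PAR bZIP factors Dbp, Tef and Hlf, and the Nr1d receptors that repress Arntl in turn. Arntl was at 2.03, 3.25, 4.25, 15.4 and 20.0 ppm in TA animals 1 to 5 and 4.64, 3.08, 10.8, 3.01 and 2.23 ppm in NIC animals 11 to 15. TA animals 4 and 5 and NIC animal 13 were the high ones, a reading made after the values were seen.

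Of 26 clock genes in the table, 8 were lower in these 3 animals than in every other animal. These were Per2, Per3, Nr1d2, Dbp, Tef, Hlf, Ciart and Usp2. Npas2, too low to be tested, was at 0.867, 0.323 and 0.198 ppm in TA animals 4 and 5 and NIC animal 13 and at 0 elsewhere. The animals were picked on Arntl, a gene of the same loop, so this count is not separate support. The share of all genes with such an order was not computed, and TA animal 4 and NIC animal 13 also stood apart on the leading principal component. Another 16 clock genes followed neither order, among them Nr1d1 and Cry1. Nr1d1 was at 15.1 and 11.8 ppm in TA animals 5 and 4 against 0.343 ppm in TA animal 3, and Cry1 ran from 3.20 ppm in TA animal 4 to 10.3 ppm in TA animal 5 and 13.1 ppm in NIC animal 13. Dbp measured 10.5, 6.24, 4.52, 0.718 and 0 ppm in TA animals 1 to 5 and 12, 8.86, 1.96, 11.5 and 23.5 ppm in NIC animals 11 to 15. Tef measured 33.3, 32.1, 33.5, 4.32 and 10.6 ppm in TA animals 1 to 5 and 47.4, 38.4, 16.1, 35.1 and 39.7 ppm in NIC animals 11 to 15. Per3 was at 2.68, 2.25, 1.88, 0 and 0 ppm in the TA animals and at 4.63, 3.61, 1.09, 4.33 and 2.73 ppm in the NIC animals. Ciart, a repressor of the Arntl and Clock pair, was at 7.40, 7.51, 4.08, 0.866 and 1.94 ppm in TA animals 1 to 5 and at 8.03, 12.1, 2.37, 27.8 and 13.4 ppm in NIC animals 11 to 15. Per2 was at 0.827 and 0.694 ppm in TA animals 4 and 5 and between 5.09 and 14.4 ppm in the other animals, with NIC animal 13 at 5.09 ppm.

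No clock gene passed the test between NIC and TA. Of 24 tested genes 14 were positive (background 49.3%) and 10 negative (50.7%), and the median was 0.10. At an unadjusted p under 0.05, 2 were higher (Per3 and Ciart, background 2.33%) and 1 lower (Clock, 1.98%). Exact permutation within dates, 2-sided and before correction, gave p = 0.117 for Per3, p = 0.133 for Ciart and p = 0.05 for Clock. Leaving out TA animals 4 and 5 and NIC animal 13 leaves no TA animal of date B. With date as a term, the father difference then rests on the date A animals less NIC animal 13. In this setting the list held 1 higher (3.48% over all genes) and 0 lower (2.16%) at that threshold. Its median was then 0.04, against 0.05 over all genes. TA animals 4 and 5 are both of date B, and neither NIC animal of that date was among the 3. The labels give no hour of day for the perfusion, and the part of clock phase in the other differences was not tested. Cyp2a5 was lowest in TA animals 4 and 5 and Por lowest in TA animal 5. Without the 3 animals, and so from date A alone, their log2 fold changes were 1.04 and 0.90, Sult1d1 had 0.63 and Cyp1a2 0.89.

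**Figure D4:**
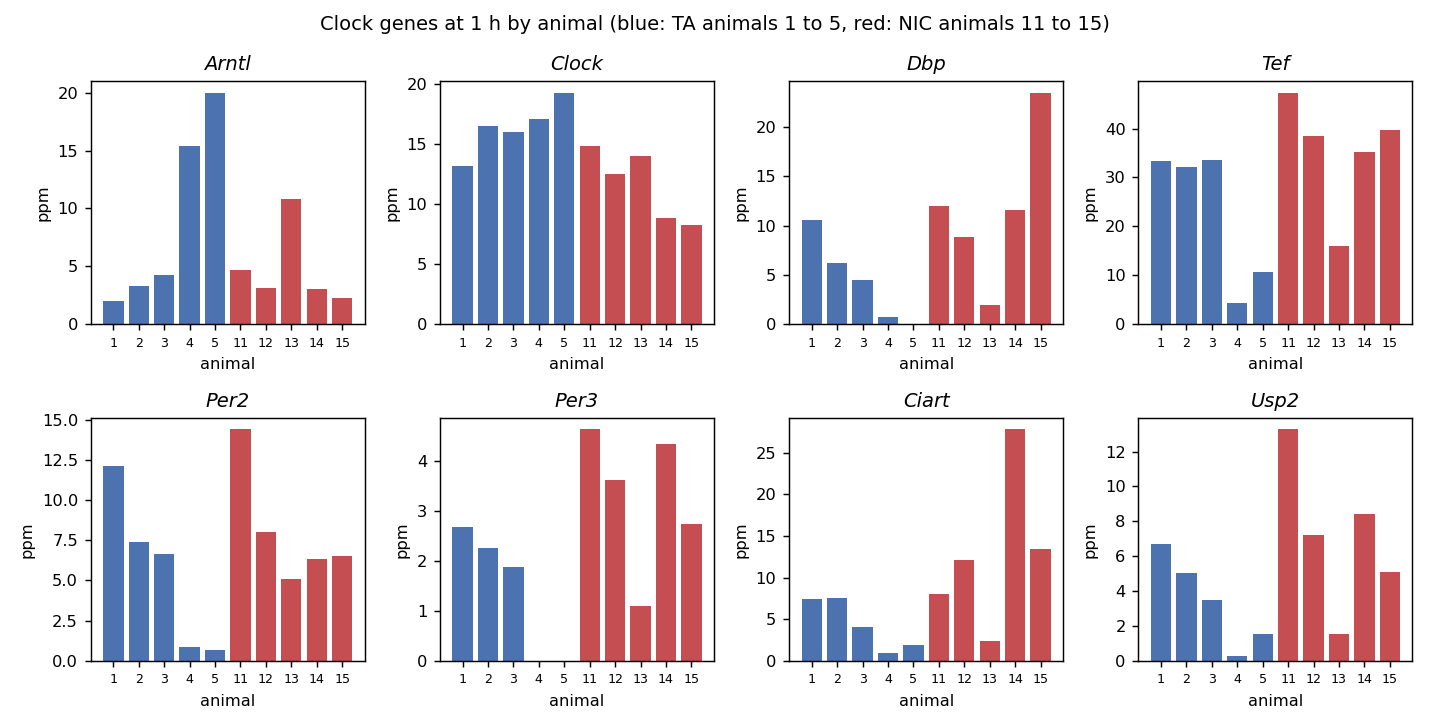
Level in ppm (vertical axis, from 0) at 1 h of 8 clock genes in TA animals 1 to 5 (blue) and NIC animals 11 to 15 (red). Arntl is high where Dbp, Tef, Per3 and Ciart are low, in TA animals 4 and 5 and NIC animal 13.

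Promoter windows of 3 clock genes that set these animals apart are shown. They were picked because they hold elements the clock factors are known to bind. The windows, from RefSeq on GRCm38.p6, run from 250 bases before to 50 after the annotated start. Of 16 clock genes looked for, 14 had a window. Capitals mark the E-box CACGTG in Ciart, the D-box TTATGTAA (bound by Dbp, Tef and Hlf; both strands searched) in Per3, and TAGGTCA, the core bound by the Nr1d and Ror receptors (both strands), in Arntl. Windows are Ciart at chr3:95882179-95882478 on the minus strand, Per3 at chr4:151044616-151044915 on the minus strand, and a second annotated start of Arntl at chr7:113207261-113207560 on the plus strand.
Ciart: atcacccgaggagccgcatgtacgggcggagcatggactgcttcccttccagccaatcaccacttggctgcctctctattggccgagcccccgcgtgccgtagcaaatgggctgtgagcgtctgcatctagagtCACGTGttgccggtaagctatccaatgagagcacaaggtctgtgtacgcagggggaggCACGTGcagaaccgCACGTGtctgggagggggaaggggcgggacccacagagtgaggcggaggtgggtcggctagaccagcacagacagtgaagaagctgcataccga
Per3: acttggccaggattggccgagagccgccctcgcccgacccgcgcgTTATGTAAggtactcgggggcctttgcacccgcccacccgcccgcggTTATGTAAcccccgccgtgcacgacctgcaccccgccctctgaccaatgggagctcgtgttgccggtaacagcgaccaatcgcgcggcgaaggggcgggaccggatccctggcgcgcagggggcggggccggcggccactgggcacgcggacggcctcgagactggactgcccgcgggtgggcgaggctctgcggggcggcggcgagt
Arntl: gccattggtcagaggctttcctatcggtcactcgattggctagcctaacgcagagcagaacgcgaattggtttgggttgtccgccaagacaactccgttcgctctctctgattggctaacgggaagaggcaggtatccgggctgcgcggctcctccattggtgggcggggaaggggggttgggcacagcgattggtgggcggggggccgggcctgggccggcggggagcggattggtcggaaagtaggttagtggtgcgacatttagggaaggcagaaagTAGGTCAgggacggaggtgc
Ciart held 3 E-boxes, and 7.15% of 32851 windows over all genes held at least 1 and 0.0883% at least 3. Per3 held 2 D-boxes, where 0.938% of windows held at least 1 and 0.0213% at least 2, and Arntl held 1 TAGGTCA, found at least once in 2.61%. Among the 14 clock genes, 4 held an E-box, 1 a D-box and 2 a TAGGTCA in at least 1 window, beside 8.09%, 1.11% and 2.97% of 27025 genes. Within these windows, the presence of an element did not follow the order of the animals. Per2, low in the same 3 animals, had no window. Tef, low in the same 3 animals, held an E-box, but Dbp, Hlf, Usp2 and Nr1d2, also low there, held none of the 3 elements. The window of the first annotated start of Arntl held none either. Per1 and Cry1 held an E-box and Nfil3 a TAGGTCA, though these genes followed neither order. A match is a description of these letters and not a site of binding in these cells. A window without a match says nothing of elements outside it or of other spelling.

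The change over the first hour of culture was then compared between the groups in the same animals. In the difference of log2(ppm + 1) between 1 h and 0 h, 0 genes passed in either direction (smallest adjusted p 0.781 in limma). At an unadjusted p under 0.05, 180 genes had a more positive change in NIC (1.79%) and 254 a more negative one (2.52%), together 434 of 10069. From 1 h to 3 h, 0 genes passed either, the smallest adjusted p was 0.489 and 180 genes (1.79%) and 495 genes (4.92%) were at an unadjusted p under 0.05. The 6 genes of smallest p with a more positive change from 0 h to 1 h were Sft2d3, Cxx1b, Ccdc159, Pgls, Gtf2h2 and Zfp385a, and the 6 with a more negative one were Hscb, Gramd1a, Ddx31, Tarbp2, Lrrc20 and Rrp9. Except for Pgls, an enzyme of the pentose phosphate pathway with 9 to 55 reads a library, none of them exceeded 15 reads in any library at 1 h.

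The deeper genes named here had similar differences at 0 h. The log2 fold change of Sult1d1 was 0.86 with a standard error of 0.20 at 0 h, 0.71 (0.15) at 1 h and 0.72 (0.14) at 3 h. Cyp1a2 had 0.82, 0.85 and 0.94 at these times, Cyp2a5 1.46, 1.54 and 1.39, Por 1.09, 1.12 and 0.78, Fkbp5 1.00, 0.86 and 0.84, and Cldn1 -1.05, -0.89 and -0.93. These 3 times share their animals and are not independent repeats. Txnip had -0.95 at 0 h, -0.90 at 1 h and -0.53 at 3 h. By contrast C1qc had 0.08 at 0 h, -0.83 at 1 h and -0.32 at 3 h, and Car13 -0.31, -1.36 and -0.49. Both genes were picked for a small p at 1 h, which favours a larger difference at that time. For none of these was the change between times past the threshold after adjustment.

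**Figure D5:**
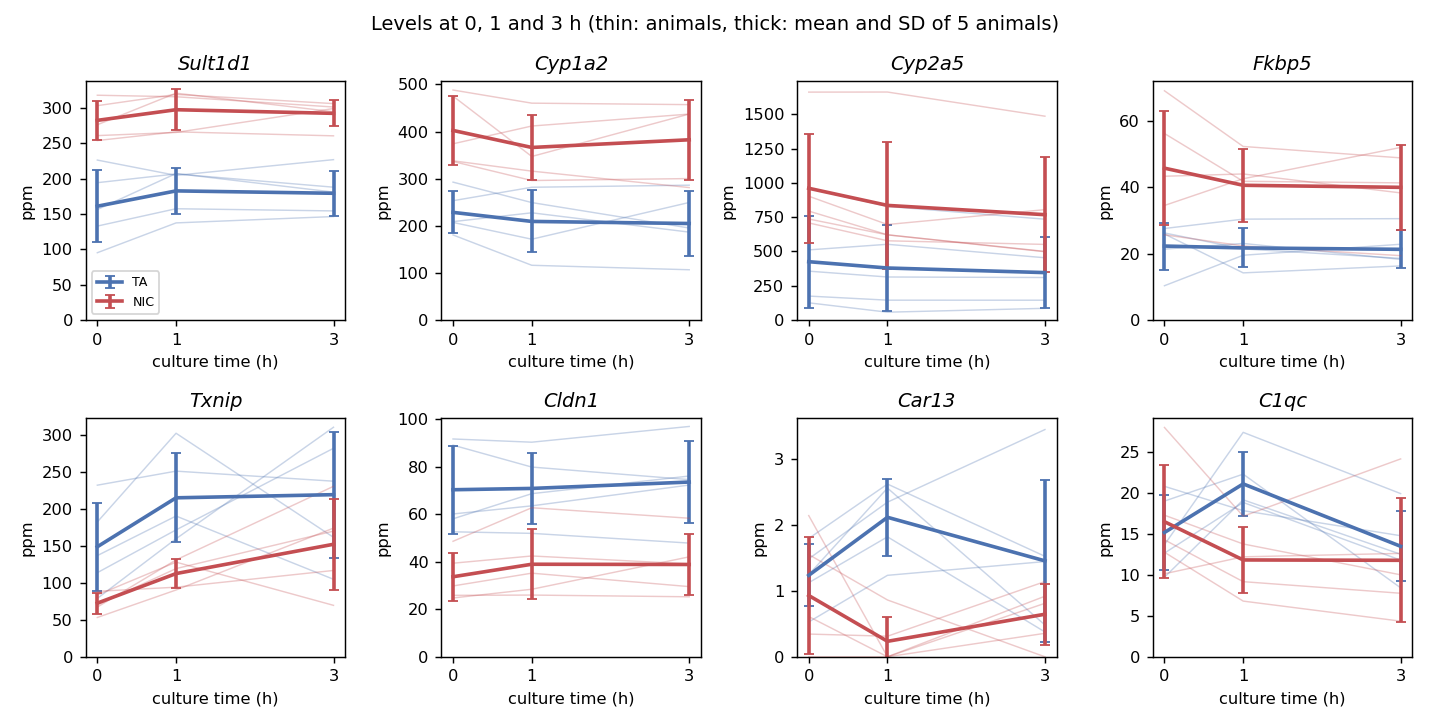
Level in ppm (vertical axis, from 0) against culture time (0, 1 and 3 h) for 8 genes, thin lines for animals and thick lines for the mean and SD of 5 TA (blue) and 5 NIC (red) animals. Sult1d1, Cyp1a2, Cyp2a5, Fkbp5 and Cldn1 keep their distance between group means. C1qc and Car13, picked at 1 h, are close at 0 h, apart at 1 h and closer again at 3 h.

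On the mm10 assembly (GRCm38, GENCODE M21), Sult1d1 lies on chromosome 5 at 87554645 to 87569027, beside Sult1b1 at 87513339 to 87538195 on the same strand, and Cyp1a2 on chromosome 9 at 57676937 to 57683703. Cyp2a5 lies on chromosome 7 at 26835305 to 26843548, Por on chromosome 5 at 135670033 to 135735326 and Txnip on chromosome 3 at 96557957 to 96561883. Values are per whole gene, so no exon is singled out. Txnip overlaps the antisense gene Gm15441, and Por overlaps Gm43091 and Gm16061, both on the other strand. The libraries were strand-specific, but whether the counting used strand is not given in the sources used here.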

How the data were processed

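Hepatocyte RNA was depleted of rRNA and sequenced as strand-specific libraries on a NextSeq 500. Bowtie2 was used by the authors for alignment to mm10, and DESeq2 with a Holm-Bonferroni correction for testing. The counting tool and versions are not given in the sources used here. The deposited table calls its values ppm, and every library has the same total. For the libraries used here the deposited values behave as TPM, since their steps differ from gene to gene. The 4 deposited columns that behave as CPM belong to other libraries and were not used. Because steps are whole multiples per library and gene, read counts were recovered for 10066 of the 10069 genes tested (100% of their values whole, tolerance 0.05). With TPM the main test stayed on the log scale.

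The father groups were contrasted on log2(ppm + 1), a pseudocount of 1, using limma 3.58.1 (R 4.3.3), for genes with a mean above 1 ppm over the 10 libraries, with an intensity trend and title date as a term, and with Benjamini-Hochberg adjustment at 0.05. Fold changes are on this scale, which understates low genes. Changes between times were tested on per-animal differences. Single genes were tested by exact permutation within dates (120 splits, 2-sided). Gene lists got counts and medians only. Named genes were the 12 of smallest p in each direction, the 10 xenobiotic genes of the study, up to 4 members of smallest p per list, the 6 of smallest p in each direction for the change from 0 h to 1 h, and defining cell type genes. Genes outside this rule, among them most clock genes, were named after their values were seen. The comparison, gene lists and rules were chosen with earlier results of these data known. Animal numbers come from the study's table of animals, and that of NIC animal 13 from blocks of numbers in the titles. The labels give dexamethasone at another unit than the study's methods, so no dose is printed. The script was tested on simulated data. The alternatives were other pseudocounts, filters, scalings, models and left-out libraries, and limma-voom on recovered reads.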

Additional observations from a re-analysis of the deposited data

Results flagged for a closer look

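Of 64 groups of 5 animals examined (32 genes, TA and NIC), 5 had a library far from the other 4 at 1 h, where chance gives about 1 in 20. For Cyp2a5, NIC animal 12 was at 1662 ppm and the next NIC animal at 697 ppm. For Por, TA animal 1 was at 193 ppm and the next TA animal at 89.8 ppm. For Wdr83, NIC animal 14 was at 12.6 ppm and the next at 5.83 ppm. For Snrnp25, TA animal 4 was at 1.45 ppm, which is 1 read, and the other TA animals at 0. For Ptpn6, NIC animal 12 was at 2.05 ppm and the next lowest at 2.31 ppm, in a group of narrow range.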

How the results depend on the processing

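The count of genes passing after adjustment stayed at 0 in both directions under all 28 alternatives at 1 h and under all 13 for each of the changes between times. At an unadjusted p under 0.05, leaving out 1 library gave 176 to 381 genes higher and 126 to 447 lower in NIC at 1 h, with both highest counts reached without NIC animal 13 and the lowest count of lower genes without NIC animal 15. Date A alone gave 248 higher and 94 lower, and date B alone 296 and 578. Filters at 10 and 25 ppm gave 155 and 106 higher and 81 and 45 lower, from fewer genes tested. Without TA animals 4 and 5 and NIC animal 13, chosen after seeing the data, the counts were 350 and 217. With date as a term, the father difference there rests on the date A animals less NIC animal 13. None of the 32 named genes reversed its direction under an alternative that tested it. With 1301733 to 2499875 reads per library, genes of a few ppm rest on single reads and small differences were not detectable. No paired analysis was possible because replicate numbers only name the samples and the labels pair no NIC with a TA animal.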
